A study of Mus musculus with 6 samples.

Results

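MAP kinases (ERK, JNK and p38) carry signals from membrane receptors and calcium entry to the nucleus, and they induce genes whose products switch the same kinases off. This account follows 10 such feedback genes, which are 10 of the 43432 genes in the deposited tables. They were listed by name, with earlier results of these data known, so the list is not independent of the changes described here: 6 dual-specificity phosphatases (Dusp1, Dusp4, Dusp5, Dusp6, Dusp8 and Dusp14), 2 Sprouty genes (Spry2 and Spry4) and 2 Sprouty-related genes (Spred1 and Spred2). The samples were wild-type C57BL/6 cortical neurons, dissociated from E16.5 mouse embryos of both sexes, pooled, and grown for 7 days in vitro. All cultures, controls included, had been silenced overnight with 1 μM tetrodotoxin, which blocks sodium channels, and 100 μM DL-AP5, which blocks NMDA receptors. KCl at 55 mM was then applied to depolarize them, for 0 h (control), 2 h or 6 h, and poly(A) RNA was sequenced from 2 libraries per time point, 6 in all. No culture was kept for 2 h or 6 h without KCl, so time under KCl and time after silencing cannot be told apart.

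The phosphatases remove phosphate from both the threonine and the tyrosine of an active MAP kinase. Dusp1, Dusp4 and Dusp5 act in the nucleus, Dusp6 acts on ERK in the cytoplasm, Dusp8 prefers JNK and p38, and Dusp14 is a small atypical member of the family without a kinase-docking domain. Sprouty and Spred proteins act upstream, between receptor tyrosine kinases, Ras and Raf. In neurons, calcium entry during depolarization activates ERK, and several of these genes are textbook members of the immediate-early and delayed-early response.

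The promoters of 3 members are shown because they held the full cyclic AMP response element or the CArG box, both described below. These are sites known to bind activity-regulated factors. RefSeq promoter sequence (GRCm38.p6) was matched for 8 of the 10 members, all but Dusp4 and Spry4, and the 250 bases before each RefSeq start were searched on both strands. The full cyclic AMP response element, TGACGTCA, the binding site of CREB, stood in 508 of 32851 promoters (1.55%). It was found in Dusp1 (143 to 136 bases before the start) and at a pair of positions in Dusp8 (107 to 100 and 63 to 56). The CArG box, bound by the serum response factor SRF, stood in 1.47% of all promoters and was found in Dusp5, as 2 adjoining copies 82 to 63 bases before the start. In the sequences below, written 5′ to 3′ on the strand of the gene, capitals mark the TGACGTCA, CArG and TGACG matches (TGACG reads CGTCA on the other strand). Bases in an exon of a listed GENCODE transcript were left out, so the Dusp1 sequence ends before the RefSeq start, at chr17:26508520-26508722 on the minus strand, as does Dusp5, at chr19:53528895-53529108 on the plus strand. The Dusp8 sequence, at chr7:142095285-142095534 on the minus strand, is the whole window and lies in an intron of the longer-reaching of its 2 listed transcripts.
Dusp1: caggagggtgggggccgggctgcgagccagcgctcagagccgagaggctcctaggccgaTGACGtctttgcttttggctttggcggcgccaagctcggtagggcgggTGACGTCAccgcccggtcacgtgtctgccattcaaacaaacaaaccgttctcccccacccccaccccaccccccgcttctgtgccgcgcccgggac
Dusp5: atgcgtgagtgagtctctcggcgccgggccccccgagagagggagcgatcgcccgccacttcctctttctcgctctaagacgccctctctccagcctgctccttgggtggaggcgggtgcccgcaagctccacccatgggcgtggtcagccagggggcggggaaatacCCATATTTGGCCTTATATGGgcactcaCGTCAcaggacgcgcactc
Dusp8: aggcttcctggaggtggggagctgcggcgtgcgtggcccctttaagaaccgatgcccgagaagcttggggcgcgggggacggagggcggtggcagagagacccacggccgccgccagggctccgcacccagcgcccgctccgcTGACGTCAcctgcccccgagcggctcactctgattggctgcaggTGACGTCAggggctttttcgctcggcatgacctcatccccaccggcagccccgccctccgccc

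The shorter CREB site, TGACG, which is contained in the full element, stood in 17.8% of all promoters and in 4 of the 8 member promoters. These were Dusp1 and Dusp8 again, Dusp5 (55 to 51 bases before the start) and Spred2 (51 to 47). Dusp14 held an Ets site, CCGGAA, 65 to 60 bases before its RefSeq start (12% of all promoters) and, next to it, an Egr site, GCGTGGG, on the minus strand at 59 to 53 (4.3%). Listed transcripts of Dusp14 (from chr11:84069261, minus strand) and of Spred2 (from chr11:19924375, plus strand) start upstream of the matches in these genes. Those matches therefore lie within a transcribed span. The AP-1 letters TGANTCA (6.75% of all promoters) and the TATA letters TATAAA (12.4%) were in no member window, and the windows of Dusp6, Spry2 and Spred1 held none of the 7 motifs. The 8 member windows had a GC content of 56.0% to 71.6%, against a median of 52.4% over all promoters. The shares over all promoters are therefore not those of promoters of like composition. These matches are descriptions of sequence. No binding was measured, and the absence of a motif from a 250-base window says nothing about elements elsewhere.

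Compared to 0 h, 6 of the 10 feedback genes rose after 2 h of KCl and 7 rose after 6 h. At 2 h these were Dusp14, Dusp6, Dusp4, Dusp1, Spry2 and Spry4, with fold changes from 2.45 to 4.62. At 6 h Dusp5 joined them, and the folds ran from 2.46 to 5.56. Dusp8, Spred1 and Spred2 did not pass the threshold at either time. A gene was called when the DESeq2 Wald test gave an adjusted p of at most 0.05 over all genes tested and an absolute log2 fold change above 1. By that rule 3.62% of the 16840 genes tested were called higher at 2 h and 5.94% lower; at 6 h these shares were 9.1% and 10.2% of 17277 genes. The median log2 fold change of the 10 members was 1.45 at 2 h and 1.54 at 6 h, against 0.015 and 0.0 for all genes tested. Both comparisons share the same 0 h libraries. Scaling by library totals moved the typical gene: its median, over genes averaging 10 counts or more, became -0.156 (2 h) and -0.251 (6 h) on the log2 scale. Of the genes called at 2 h, 37.8% were higher, or 27.3% with library totals, and at 6 h the shares were 47.2% and 28.7%. The same 6 and 7 members were called with either scaling. In whole cultures, a change in the number of cells of a type and a change in RNA per cell cannot be told apart.

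**Figure D1:**
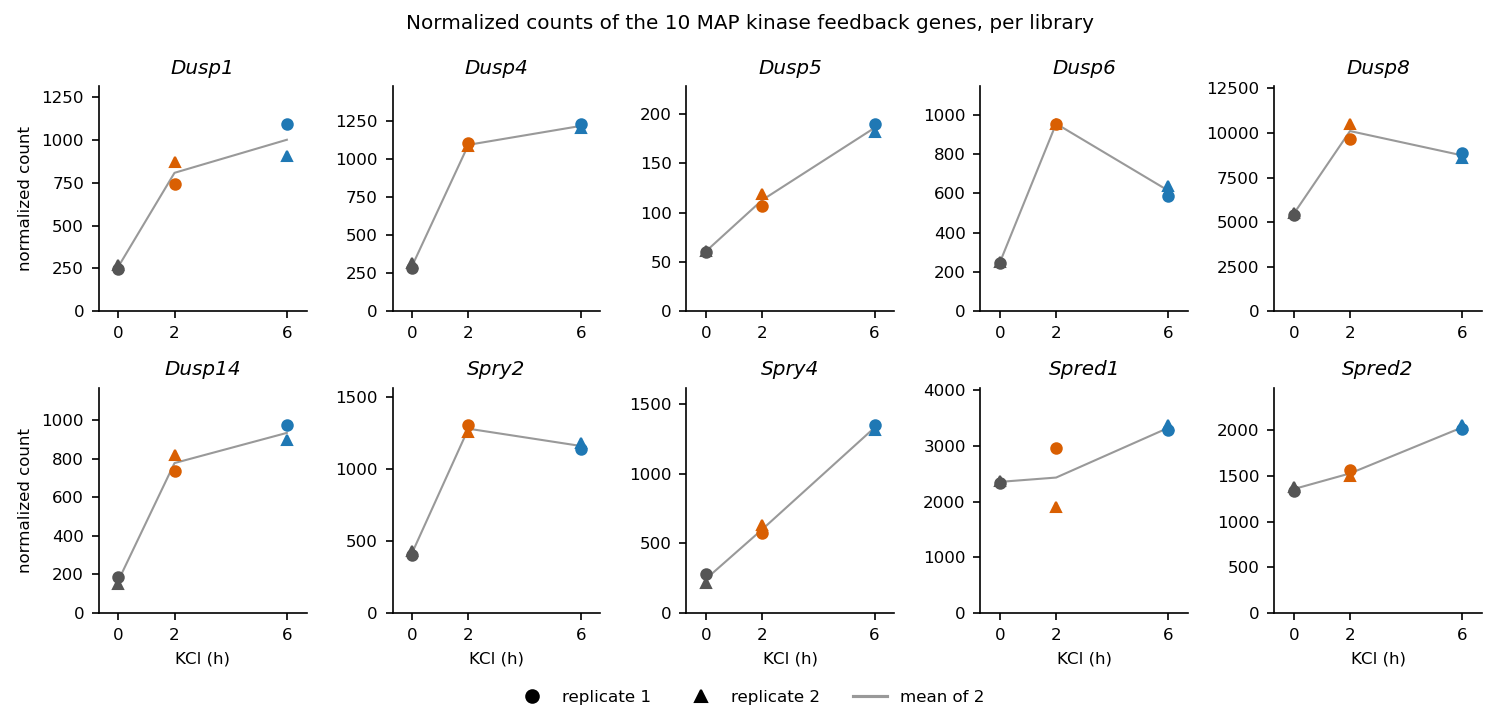
Normalized count (DESeq2 size factors) of each feedback gene against hours of KCl, with 1 point per library (circle, replicate 1; triangle, replicate 2) and a line through the means; each panel has its own axis from 0. In every panel but Spred1, both libraries at 2 h lie above both libraries at 0 h.

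Among the nuclear phosphatases, Dusp1 (chr17:26505590-26508519 by the transcripts listed, minus strand) is the classical immediate-early member and acts on JNK, p38 and ERK. Its normalized counts were 248 and 272 (0 h), 742 and 873 (2 h) and 1095 and 906 (6 h). The groups before and after KCl did not overlap, and the 6 h libraries differed from each other more than the 0 h pair did. Dusp1 rose by 1.63 ± 0.18 (log2 fold change ± SE, here and below; adjusted p = 1.12e-17) at 2 h and by 1.94 ± 0.18 (adjusted p = 2.22e-25) at 6 h. The 6 h against 2 h difference was 0.31, with a 95% interval from -0.03 to 0.65 (adjusted p = 0.14).

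Dusp4 (chr8:34807297-34819894, plus strand), a nuclear phosphatase of ERK, JNK and p38 that is itself induced by ERK signalling, had 283 and 313 normalized counts (0 h), 1102 and 1081 (2 h) and 1232 and 1200 (6 h). Replicates lay close together, and the step to 2 h was many times their gap. The gene rose 3.66-fold at 2 h (log2 1.87 ± 0.14, adjusted p = 6.96e-41) and was 4.07-fold above 0 h at 6 h (2.03 ± 0.14, adjusted p = 2.32e-48). Between 2 h and 6 h the difference was 0.15, with an interval from -0.10 to 0.41 (adjusted p = 0.334).

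Dusp5 (chr19:53529109-53542431, plus strand), a nuclear phosphatase specific for ERK, was the least abundant member, with 60.4 and 61.5 normalized counts (0 h), 107 and 119 (2 h) and 190 and 182 (6 h). All 3 groups were separate, and each later time lay above the one before. At 2 h the log2 difference was 0.89 ± 0.27 (adjusted p = 0.00517), under the fold threshold, and at 6 h the gene rose by 1.61 ± 0.26 (adjusted p = 6.16e-09). The 6 h against 2 h difference, 0.72 ± 0.25 (adjusted p = 0.0109), was also under the fold threshold. A test against a log2 fold change of 1, in place of 0, gave an adjusted p of 0.252 at 6 h. The annotation lists an antisense gene, AC137853.2, over the Dusp5 start; it has no row in the tables, and whether its reads were kept apart by strand is not stated.

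Dusp6 (chr10:99263231-99267488, plus strand) is the cytoplasmic, ERK-specific phosphatase and a standard readout of ERK activity. Its normalized counts were 247 and 251 (0 h), 953 and 954 (2 h) and 587 and 638 (6 h). The 3 groups were separate and the highest level was at 2 h. Dusp6 rose 3.83-fold at 2 h (1.94 ± 0.15, adjusted p = 3.01e-38) and was still 2.46-fold above 0 h at 6 h (1.3 ± 0.15, adjusted p = 2.81e-17). From 2 h to 6 h the log2 difference was -0.64 ± 0.14, with an interval from -0.91 to -0.37 (adjusted p = 2.2e-05), which was under the fold threshold. In the test against a log2 fold change of 1 the 6 h difference from 0 h had an adjusted p of 0.478.

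Dusp8 (chr7:142079490-142095843, minus strand), the JNK and p38 phosphatase, had by far the highest counts of the members. They were 5427 and 5516 (0 h), 9685 and 10528 (2 h) and 8875 and 8604 (6 h). The groups did not overlap at any time. Compared to 0 h, Dusp8 was 1.85-fold higher at 2 h (0.89 ± 0.10, adjusted p = 3.89e-17) and 1.6-fold higher at 6 h (0.68 ± 0.10, adjusted p = 1.3e-10), so it differed beyond the replicate spread while missing the fold threshold. The 95% interval of the 2 h difference, 0.69 to 1.08, includes that threshold. Dusp5, the member with the lowest counts, had the same fold at 2 h. An RNA that starts divergently from the Dusp8 promoter region, Gm32786, overlaps its 5′ end in the annotation and has no row in the tables.

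Dusp14 (chr11:84048041-84069261, minus strand) had the largest fold of the members at both times, with Spry4 within 1 standard error of it at 6 h. Normalized counts were 187 and 149 (0 h), 737 and 818 (2 h) and 973 and 895 (6 h). Every library after KCl was more than 3 times the higher control. The fold was 4.62 at 2 h (2.21 ± 0.18, adjusted p = 8.26e-33) and 5.56 at 6 h (2.47 ± 0.18, adjusted p = 1.22e-41). The 6 h against 2 h difference was 0.27, with an interval from -0.06 to 0.59 (adjusted p = 0.193).

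The Sprouty genes both rose, with their highest levels at different times. Spry2 (chr14:105891947-105896819, minus strand), an inhibitor of receptor tyrosine kinase signalling to Ras, had 404 and 434 normalized counts (0 h), 1303 and 1257 (2 h) and 1141 and 1180 (6 h). Its level was highest at 2 h, with the 6 h libraries just under it. Spry2 rose by 1.61 ± 0.13 at 2 h (adjusted p = 5.23e-34) and by 1.47 ± 0.13 at 6 h (adjusted p = 1.66e-28), and the 6 h against 2 h difference was -0.14, with an interval from -0.38 to 0.10 (adjusted p = 0.365).

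Spry4 (chr18:38586247-38601415, minus strand) had 277 and 214 normalized counts (0 h), 571 and 629 (2 h) and 1345 and 1313 (6 h). Each step was larger than the gap between replicates. It rose by 1.29 ± 0.18 at 2 h (adjusted p = 7.78e-12) and by 2.44 ± 0.17 at 6 h (adjusted p = 1e-42). Spry4 was also the 1 member called between 6 h and 2 h, by 1.15 ± 0.17 (2.22-fold, adjusted p = 1.01e-10), in a comparison where 10.1% of 16404 genes were called higher and 8.02% lower. Against a log2 fold change of 1 the adjusted p was 1.0 for both the 2 h rise and the rise from 2 h to 6 h, so those steps are not shown to exceed 2-fold. Whether its time course differs from that of Spry2 was not tested as such.

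The Spred genes had the smallest log2 differences from 0 h of the members. Spred1 (chr2:117121374-117182279, plus strand), which brings the Ras inhibitor neurofibromin to the membrane, had 2337 and 2371 normalized counts (0 h), 2965 and 1898 (2 h) and 3282 and 3368 (6 h). The 2 h libraries lay on either side of the controls, the only overlap between 0 h and 2 h among the members. The log2 difference at 2 h was 0.05 ± 0.21, with an interval from -0.36 to 0.46 (adjusted p = 0.916). Without 2 h replicate 1 it was -0.32 (adjusted p = 0.00497), and without 2 h replicate 2 it was 0.32 (adjusted p = 0.00476), so that its direction rests on the choice of library. The 2 h pair differed more than the other pairs over all genes: over 12290 genes, log2 differences within the pair had an SD of 0.429, against 0.246 (0 h) and 0.214 (6 h). That difference ran with GC content (Spearman's rho across genes -0.744, against -0.405 and -0.293), and the transcribed sequence of Spred1 is 41.5% GC, the lowest of the members. At 6 h Spred1 was 1.41-fold above 0 h (0.50 ± 0.21, adjusted p = 0.0387), under the fold threshold. The adjusted p was 0.0722 with edgeR, 0.0744 with TMM factors, 0.292 with library totals (log2 0.25) and 0.166 to 0.2 without any 1 of the 0 h or 6 h libraries. A correction for GC content gave 0.14 at 2 h (adjusted p = 0.238) and 0.26 at 6 h (adjusted p = 0.0117).

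Spred2 (chr11:19924375-20024026, plus strand), a related inhibitor of Raf activation, had 1332 and 1384 normalized counts (0 h), 1562 and 1497 (2 h) and 2013 and 2055 (6 h). The groups were separate at each time, and the largest step came after 2 h. The log2 difference was 0.17 at 2 h, with an interval from -0.04 to 0.39 (adjusted p = 0.271), and 0.58 ± 0.11 at 6 h (adjusted p = 4.75e-07). From 2 h to 6 h it was 0.41 ± 0.11 (adjusted p = 0.000563). Neither reached the fold threshold, and the difference between 6 h and 2 h had an adjusted p of 0.0777 without 6 h replicate 1 and 0.106 without 6 h replicate 2.

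**Figure D2:**
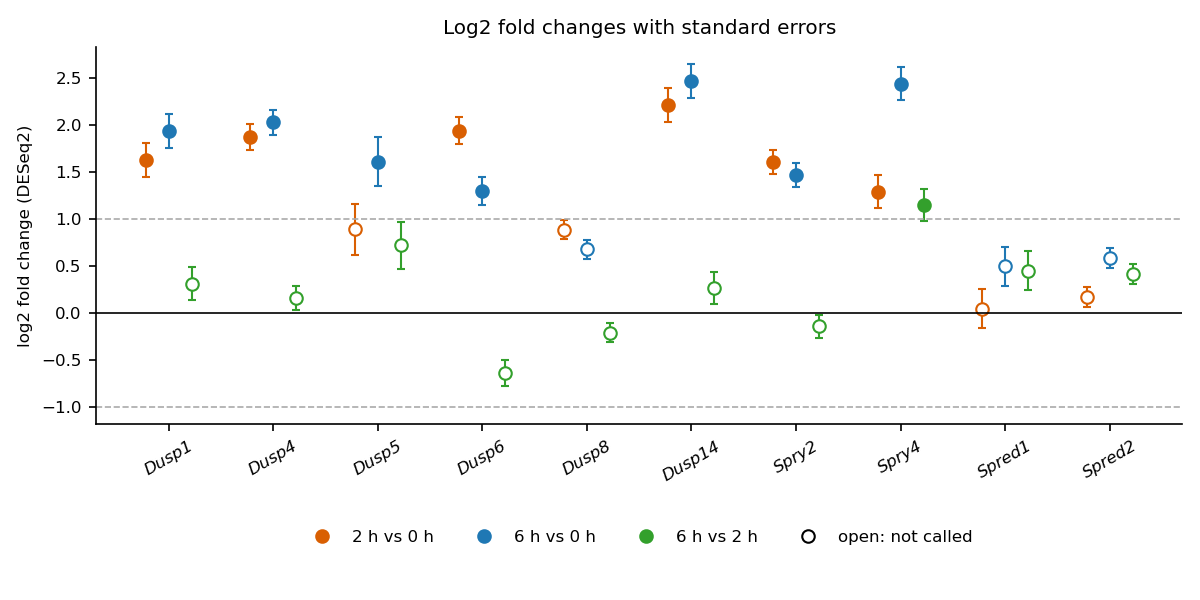
Log2 fold change (DESeq2) of each feedback gene in the 3 comparisons, with bars of 1 standard error; filled points were called, open points were not, and dashed lines mark the fold threshold of 1. Spry4 is the gene with a filled point for 6 h against 2 h, and the Dusp6 point for that comparison, at -0.64, lies lowest.

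Levels can be compared between genes only per length, in TPM (transcripts scaled per length and to the same total in each library). At 0 h Dusp8 had the highest level, 86.4 ± 2.0 TPM (SD, n = 2, here and below), followed by Spred1 (29.5 ± 0.5) and Spred2 (28.9 ± 0.7), whose libraries overlapped. Next came Spry2 (16.7 ± 1.0), then Dusp1 (11.99 ± 0.81) and Dusp14 (10.9 ± 1.7), which overlapped, and Dusp4 (8.69 ± 0.70), Dusp6 (7.08 ± 0.16), Spry4 (4.06 ± 0.71) and Dusp5 (1.99 ± 0.04), each separate from its neighbour. In silenced neurons the summed level of the 10 genes, 204 and 209 TPM in the 2 libraries, was therefore made mostly of Dusp8 and the Spred genes. Dusp8 alone gave 41.7% and 42.1% of it.

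After 2 h the sum was 379 and 394 TPM, and after 6 h it was 414 and 405 TPM. Dusp8 was still first, at 141 ± 9.9 TPM at 2 h and 121 ± 1.4 TPM at 6 h, but its part of the sum was 35.3% and 37.4% at 2 h, and 29.6% and 29.7% at 6 h. Dusp14 went from rank 6 at 0 h to rank 2 at both later times (50.5 ± 3.9 and 60.6 ± 3.1 TPM), and Spry2 from rank 4 to rank 3 (45.1 ± 0.7 and 40.9 ± 1.5 TPM). At 2 h Dusp1 overlapped Spred2, and Spred1 overlapped both Dusp4 above it and Dusp6 below it, so this middle of the order (24.0 to 30.8 TPM) is not resolved. At 6 h Spry2, Dusp1 and Spred1 overlapped as neighbours. Spry4 reached 19.4 ± 0.1 TPM at 6 h and passed Dusp6 (15.4 ± 1.1 TPM), and Dusp5 was last throughout (3.26 ± 0.28 and 5.37 ± 0.11 TPM at the later times). The log2 distance between the highest and lowest member, on log2(TPM + 1), was 4.87 in the controls, 5.05 after 2 h and 4.26 after 6 h.

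**Figure D3:**
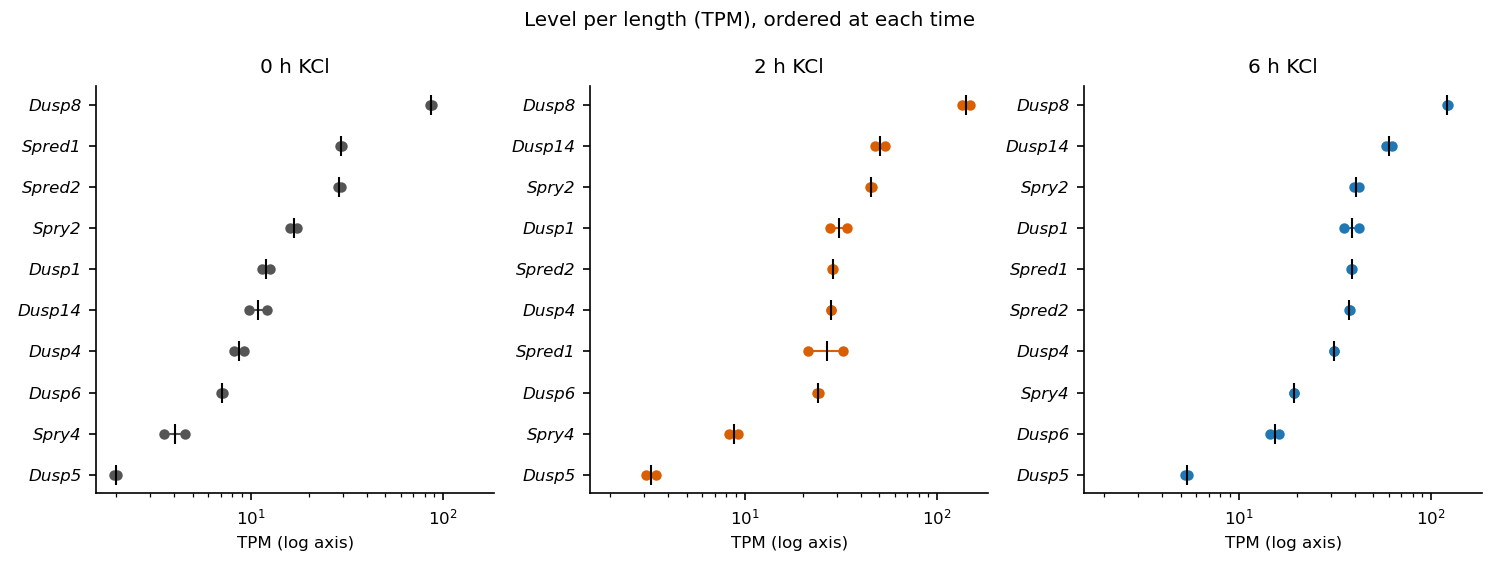
Level of each feedback gene in TPM (log axis) for each time, ordered by the mean within each panel; points are the 2 libraries, joined by a line, and ticks are means. Dusp8 is at the top and Dusp5 at the bottom of all 3 panels, while Dusp14 moves from rank 6 to rank 2.

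The tables also give an effective length for each gene and library, which averages the lengths of its transcripts by their estimated abundance and so shifts with the mix of transcripts. For Dusp14, with 5 listed transcripts from 710 to 1571 bases long, it was 1090 and 1084 bases (0 h), 954 and 966 (2 h) and 953 and 961 (6 h). The controls were separate from all 4 later libraries. The log2 ratio was -0.18 ± 0.01 (SE) at 2 h (adjusted p = 0.0678, limma) and -0.18 ± 0.01 at 6 h (adjusted p = 0.0382, limma), under the ratio of 0.2 needed for a call. Leaving out 1 library in turn gave adjusted p-values from 0.0728 to 0.164 for the 6 h ratio, which then missed 0.05. With effective length as an offset in the count model, Dusp14 was higher by 2.38 at 2 h and 2.62 at 6 h, close to the values without it.

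Dusp1, with 3 listed transcripts, shifted the other way. Its effective length was 1529 and 1539 bases (0 h), 1645 and 1621 (2 h) and 1593 and 1605 (6 h), again with no overlap between controls and later libraries. The log2 ratio was 0.09 ± 0.01 at 2 h (adjusted p = 0.174, limma) and 0.06 ± 0.01 at 6 h (adjusted p = 0.136, limma). Spred1, with 2 listed transcripts, had a log2 ratio of -0.08 ± 0.02 at 6 h (adjusted p = 0.236, limma). By limma 0 members were called in any comparison; at an unadjusted p under 0.05 there were 2 at 2 h against 0 h, 3 at 6 h against 0 h and 1 at 6 h against 2 h. Calls were rare over all 11233 genes tested, at 0.0356%, 0.525% and 0.116% in the same order. Of the other members, Dusp4, Dusp5, Dusp6, Spry2 and Spry4 have 1 listed transcript each, so that their effective length cannot follow a mix of transcripts.

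**Figure D4:**
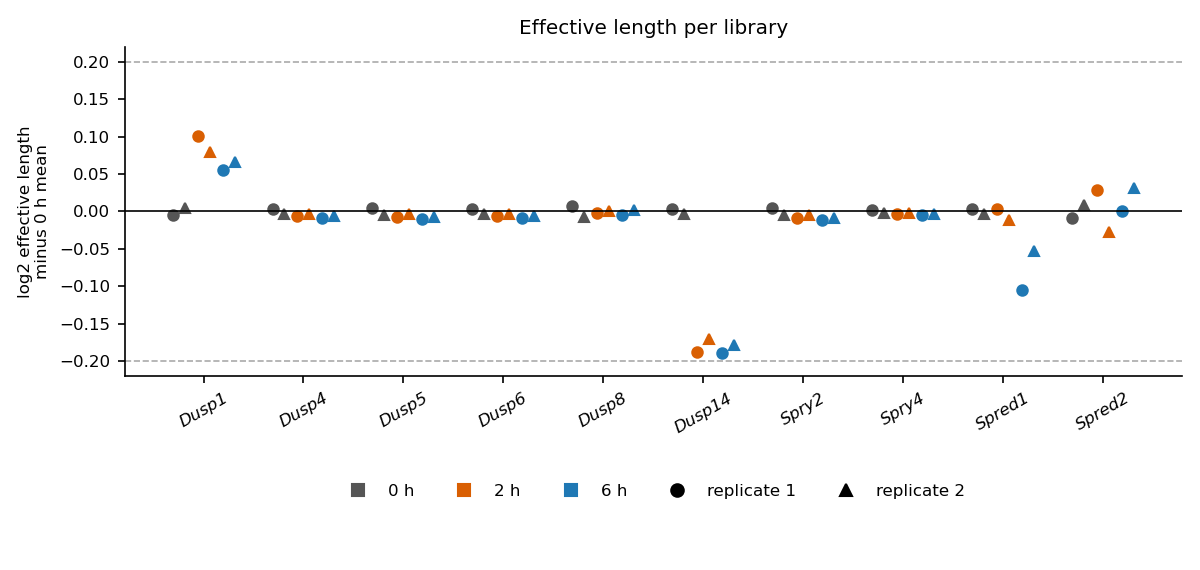
Log2 effective length of each feedback gene in each library, minus the mean of the 0 h libraries (colour, hours of KCl; circle and triangle, replicates 1 and 2; dashed lines, the threshold of 0.2). The 4 libraries of Dusp14 after KCl lie well below 0 and those of Dusp1 above it, while the genes with 1 listed transcript stay at 0.

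For each member called in any comparison, the genes with the closest profile over the 6 libraries were sought among 11123 genes, by Euclidean distance of log2(normalized count + 1) from the 0 h mean. The Dusp1 profile was closest to that of Kcnf1, a potassium channel subunit (distance 0.313), and of the chromatin remodeller Chd2 (0.317). Closest to Dusp4 were Cpne1 (0.153) and the protocadherin Pcdh8 (0.198). For Dusp5 they were Rabgef1 (0.117) and Ankrd50 (0.13), and for Dusp6 they were the choline kinase Chka (0.176) and Tbc1d1 (0.179). Dusp14 was nearest to Adcyap1, which encodes the neuropeptide PACAP (0.263), and to the clock gene Per1 (0.477), the most distant of these matches. Spry2 was nearest to Pnrc1 (0.207) and Khdc4 (0.228), and Spry4 to the kinase Sik3 (0.266) and the scaffold Grasp (0.334). These distances describe 6 libraries at 3 times, where many genes can share a shape.

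Among 19 other Dusp, Spry and Spred genes tested at both times, 1 was called higher at 2 h, where the share over all genes was 3.62%. At 6 h 4 were called higher and 5 lower, beside 9.1% and 10.2% of all genes. The 1 gene at 2 h was Dusp16, a JNK and p38 phosphatase related to Dusp8. It had 291 ± 33 normalized counts at 0 h, 1076 ± 23 at 2 h and 676 ± 81 at 6 h (SD, n = 2), a log2 rise of 1.89 ± 0.17 at 2 h (adjusted p = 3.2e-27) and of 1.21 ± 0.17 at 6 h (adjusted p = 9.84e-12). Spry1 rose by 1.3 ± 0.22 at 6 h (adjusted p = 1.55e-08). Spred3 was near its 0 h level at 2 h (log2 0.06, adjusted p = 0.876) and rose by 1.76 ± 0.17 at 6 h (adjusted p = 1.08e-22) and by 1.70 ± 0.17 from 2 h to 6 h (adjusted p = 6.06e-21). Spry3 was called only from 2 h to 6 h, by 1.16 ± 0.22 (adjusted p = 4.6e-07), and not without 2 h replicate 2. Dusp3, a small phosphatase of ERK and JNK, was called higher at 6 h at 1.02 ± 0.11 (adjusted p = 4.3e-18), just past the fold threshold, and that call was lost with edgeR, with TMM factors, with library totals and without 0 h replicate 2 or 6 h replicate 2.

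Those that fell at 6 h were Dusp15 (log2 -2.01 ± 0.26, adjusted p = 5.86e-14), Dusp19 (-1.80 ± 0.19, adjusted p = 1.04e-19), Dusp23 (-1.78 ± 0.46, adjusted p = 0.00049), Dusp2 (-1.50 ± 0.50, adjusted p = 0.00775) and Dusp12 (-1.19 ± 0.20, adjusted p = 2.91e-08). Dusp2 encodes a nuclear ERK phosphatase; it and Dusp23 were low in all groups, with means of 34.0 and 43.2 normalized counts. The Dusp2 call was lost without any 1 of the 0 h or 6 h libraries, and that of Dusp23 without 0 h replicate 1. From 2 h to 6 h, 2 of 18 tested were called higher (Spry3 and Spred3) and 3 lower (Dusp15, Dusp19 and Dusp23), beside 10.1% and 8.02% of all genes. In that comparison the Dusp23 call was lost without 2 h replicate 1, 6 h replicate 1 or 6 h replicate 2, and the Dusp15 call with effective-length offsets.

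Over 7 lists with 142 other genes of MAP kinase signalling, 9 were called higher and 1 lower at 2 h, of 137 tested. The shares over all genes were 3.62% and 5.94%, and without 2 h replicate 1 the count lower was 2. At 6 h the counts were 28 and 14 of 139, beside 9.1% and 10.2% of all genes, so the count lower was at the background. From 2 h to 6 h they were 14 and 12 of 136, near the background of 10.1% and 8.02% in both directions. With library totals the 28 higher at 6 h became 18, and of the genes named here Dusp3, Dusp16, Shc3, Sos1 and Ccnd1 then missed the fold threshold at 6 h. The GC correction ended the 6 h calls of Rasa1, Sos1 and Shc2. On the inhibitory side, Errfi1, a feedback inhibitor of the EGF receptor, rose by 1.58 ± 0.13 at 2 h (adjusted p = 1.29e-34) and by 2.32 ± 0.12 at 6 h (adjusted p = 5.62e-76), the 1 gene of the 21 Ras-side inhibitors and family members tested that was called at 2 h. At 6 h 5 of 22 in that list were higher and 2 lower, or 1 lower without 0 h replicate 2 or 6 h replicate 1; the count lower was near the background. Neurofibromin itself, Nf1, rose by 1.28 ± 0.12 (adjusted p = 9.01e-26), and Rasa1, a Ras GTPase activator, by 1.36 ± 0.30 (adjusted p = 2.29e-05; not called without 0 h replicate 1), while Rasa3 fell by 1.74 ± 0.13 (adjusted p = 1.5e-36).

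Of 32 receptors, adaptors and Ras activators, 1 was called higher at 2 h, the FGF receptor gene Fgfr2 (1.35 ± 0.11, adjusted p = 2.62e-30). The count was 2 with the GC correction and 3 without 2 h replicate 2. At 6 h 3 were higher and 2 lower, or 1 and 4 with library totals. The counts higher were at the background of 3.62% (2 h) and 9.1% (6 h), and the count lower at 6 h was under that of 10.2%. Those higher at 6 h were Fgfr2 (1.37 ± 0.11, adjusted p = 1.7e-31), the adaptor Shc3 (1.22 ± 0.13, adjusted p = 2.46e-20) and the Ras exchange factor Sos1 (1.08 ± 0.20, adjusted p = 2.25e-07). The adaptors Frs3 (-1.58 ± 0.53, adjusted p = 0.00817) and Shc2 (-1.11 ± 0.14, adjusted p = 8.46e-14) fell, and the Frs3 call was lost when 0 h replicate 1, 0 h replicate 2 or 6 h replicate 1 was left out. With effective-length offsets neither was called. The BDNF receptor gene Ntrk2, with 16970 ± 232 normalized counts at 0 h, was 0.75 ± 0.09 higher at 6 h (adjusted p = 4.36e-17), under the fold threshold.

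Mapk3, which encodes ERK1, a kinase on which several members act, was not called. Its log2 difference was 0.08 at 2 h (adjusted p = 0.721) and -0.15 at 6 h (adjusted p = 0.352). Of 14 genes of the ERK cascade, 1 was called higher at 2 h, the Raf kinase Braf, at 1.29 ± 0.24 (adjusted p = 9.21e-07). Its 2 h libraries were far apart (4940 ± 1791 normalized counts, SD), and without 2 h replicate 1 the count of calls in this list was 0. Over all genes 3.62% were called higher at 2 h, 9.1% higher at 6 h and 10.2% lower at 6 h. At 6 h 4 were higher, with the largest values for Mapk4 (1.64 ± 0.12, adjusted p = 1.07e-38) and Braf (1.34 ± 0.24, adjusted p = 1.35e-07), and 1, Map2k5, fell (-1.53 ± 0.17, adjusted p = 1.67e-18); 2 were lower without 0 h replicate 2 or 6 h replicate 1 and with TMM factors. With library totals 2 were higher and 2 lower.

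In the JNK and p38 branch, Map2k3, an activator of p38, fell at 2 h (-1.46 ± 0.20, adjusted p = 1.26e-11) and was near its control level at 6 h (-0.16, adjusted p = 0.522), the 1 call of 23 tested at 2 h. At 6 h 3 of 24 rose and 1 fell (2 with library totals), the first near the 9.1% and the second under the 10.2% of all genes. Map3k5, which encodes the stress kinase ASK1, rose by 3.12 ± 0.13 (adjusted p = 2.3e-125), from 453 ± 31 normalized counts at 0 h and 473 ± 20 at 2 h to 3936 ± 219, and Mapk11 fell by 1.56 ± 0.19 (adjusted p = 1.22e-15). Of the 17 kinases and nuclear factors that MAP kinases activate, 1 rose at 2 h, Srf, the factor that binds CArG boxes (1.37 ± 0.11, adjusted p = 6.72e-32). These single calls at 2 h stand beside 3.62% of all genes higher and 5.94% lower. At 6 h 6 were higher, with Elk4 (1.73 ± 0.14, adjusted p = 2.99e-33), a partner of SRF, and the kinase gene Mknk2 (1.52 ± 0.13, adjusted p = 3.84e-28) in front, and 3 were lower, among them Jun (-1.28 ± 0.17, adjusted p = 2.33e-13), beside 9.1% and 10.2% of all genes.

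The list nearest to the members in kind, 13 transcripts known to follow ERK activity, had 4 called higher at 2 h and 5 at 6 h, beside 3.62% and 9.1% of all genes. Fos rose by 7.71 ± 0.21 at 2 h (adjusted p = 3.12e-298), from 36.4 ± 2.6 to 7581 ± 907 normalized counts, and Egr2 by 2.35 ± 0.33 (adjusted p = 2.58e-11). Fos was still up at 6 h (6.73 ± 0.21, adjusted p = 4.09e-226), whereas Egr2 fell from 2 h to 6 h (-2.55 ± 0.34, adjusted p = 1.95e-12). The ERK-responsive Ets factor Etv5, 0.94 ± 0.11 at 2 h (adjusted p = 1.75e-16), rose by 1.28 ± 0.11 at 6 h (adjusted p = 1.03e-30), and Ccnd1, cyclin D1, by 1.04 ± 0.15 (adjusted p = 1.17e-11; not called without 6 h replicate 2). The other called genes, Epha2 and Ier3, had means under 50 normalized counts, and leaving out single libraries lowered the 2 h count of this list to 2. The 6 h count was 3 without 0 h replicate 1, 0 h replicate 2 or 6 h replicate 1, and 2 without 6 h replicate 2 or with library totals.

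**Figure D5:**
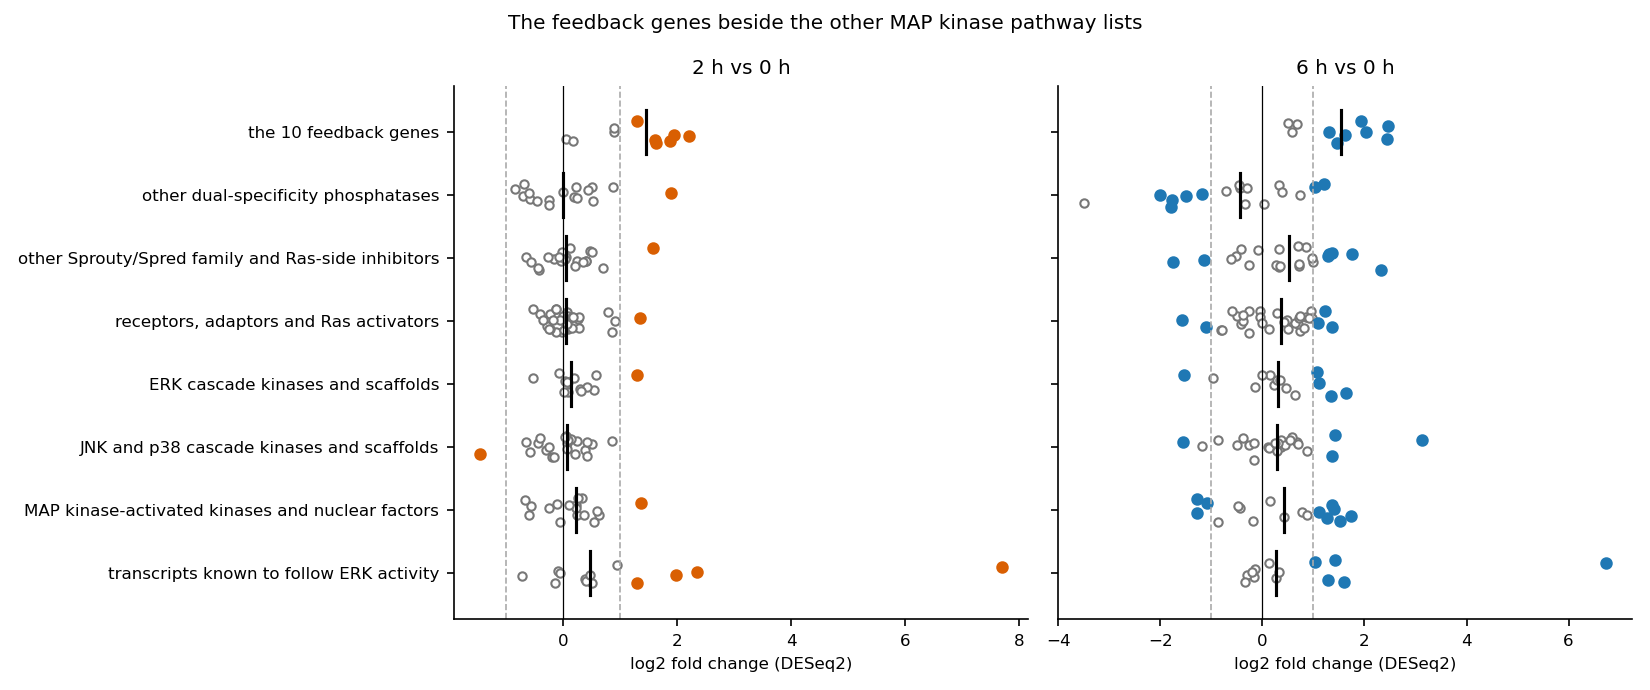
Log2 fold change (DESeq2) of the feedback genes and of 7 lists of other MAP kinase pathway genes at 2 h and at 6 h against 0 h; each point is a gene, filled where called, black bars are medians and dashed lines mark the fold threshold. The feedback genes have the median farthest to the right in both panels, 1.45 and 1.54.

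The 6 libraries held 25959298 to 28573067 expected counts, and 18767 to 19212 genes had a count in each. All 10 members had whole-number counts in every library, as when reads are not shared with another gene. Neuronal markers were high (14 of 14 above 0 in both libraries at each time, summed level 5780 to 6260 TPM), but astrocyte markers were present too, 10 of 10 above 0, with a summed level of 4700 to 4780 TPM at 0 h, 3820 to 4370 at 2 h and 3320 to 3500 at 6 h. Their median log2 fold change was 0.015 at 2 h and -0.361 at 6 h, and their part in the members' changes was not tested. Dividing-progenitor markers summed to 179 to 202 TPM and oligodendrocyte-lineage markers to 98.9 to 152 TPM over all libraries. Microglial (at most 6.48 TPM) and endothelial and mural markers (at most 3.36 TPM, Cldn5 at 0 at 2 h) were near 0.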

How the data were processed

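Poly(A) RNA of 6 cultures (3 times, 2 biological duplicates each) was sequenced as stranded 150 bp paired-end libraries. The authors trimmed reads with Trim Galore and quantified them against mm10; the submitters' processing notes name RSEM 1.3.0 and Bowtie2 2.2.9. The annotation release and the strand setting are not given in the sources used here. The deposited tables give, per gene and library, an expected count (RSEM's estimate), TPM and an effective length in bases (the authors' values). Gene names and transcripts came from GENCODE M21 (42548 of 43432 genes matched) and promoters from RefSeq GRCm38.p6.

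Expected counts were rounded and fitted with DESeq2 1.42.0 (R 4.3.3), group only, all 6 libraries in 1 model, with Benjamini-Hochberg adjustment over all genes tested. The thresholds (adjusted p of 0.05 or less, log2 fold change beyond 1 either way) follow the study's methods. Log2 effective length was fitted with limma 3.58.1 (trend) where the mean expected count reached 100; a call needed an adjusted p of 0.05 or less and a log2 ratio of 0.2 or more either way. TPM was used for levels, with no test and a pseudocount of 1 for the log2 range. Totals of 25959298 to 28573067 expected counts set the precision, and standard errors cover counting error and the spread between duplicates only.

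Alternatives were edgeR 4.0.16 (quasi-likelihood), TMM factors, library totals, a mean count of at least 10, a test against a log2 fold change of 1, effective-length offsets, a GC correction, a replicate block and leaving out each library. The main, edgeR, replicate-block and effective-length fits were run on simulated data, and the other alternatives were not. The simulated data had the same spread for every gene, no GC trend and changes only at 2 h. The outcome is not given here. Named were all members, other Dusp, Spry and Spred genes called in any comparison, up to 3 called genes per list and comparison with a mean of at least 50 normalized counts, and the 2 closest profiles per called member among genes with a mean of at least 100. Named beyond this rule, after their values were seen, were Nf1, Rasa1, Sos1, Epha2, Ier3, Mapk3 and Ntrk2. Some genes of the lists are not reported here by name. The members and lists were chosen with earlier results of these data known.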

Additional observations from a re-analysis of the deposited data

How the results depend on the processing

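Of 450 settings of single members, 444 kept direction and call. The count of members called, 6 at 2 h, 7 at 6 h and 1 from 2 h to 6 h, was the same under edgeR, TMM factors, library totals, the count filter, effective-length offsets, the GC correction, the replicate block and each left-out library. The test against a log2 fold change of 1, a stricter question, left 5, 5 and 0 members: Spry4 at 2 h (log2 1.29), Dusp5 (1.61) and Dusp6 (1.3) at 6 h and Spry4 from 2 h to 6 h (1.15) were lost. Over all genes it left 178 higher and 225 lower at 2 h (of 609 and 1000), 446 and 414 at 6 h (of 1572 and 1761) and 342 and 198 from 2 h to 6 h (of 1654 and 1316). Library totals gave 1032 higher at 6 h. Spred1 at 2 h turned to -0.126 with library totals (adjusted p = 0.722) and ran from -0.321 to 0.315 when 1 library was left out, the lowest without 2 h replicate 1 (adjusted p = 0.00497, DESeq2); the cause was not tested. Near-zero effective-length ratios changed sign when 1 library was left out: Spred1 at 2 h ranged from -0.011 to 0.003 and Dusp14 between 2 h and 6 h from -0.014 to 0.004. With a pseudocount of 0.1 the log2 TPM range was 5.37, 5.39 and 4.47.

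Whether same-numbered replicates were prepared together is not stated. Over 12290 genes, deviations of same-numbered libraries correlated at 0.281 (2 h and 0 h), -0.00226 (6 h and 0 h) and 0.152 (6 h and 2 h). With the GC correction these values were 0.0928, -0.0636 and 0.0389. Shared preparation and a shared GC trend cannot be told apart here, so pairing is left undecided. The replicate block gave 548 higher and 967 lower at 2 h and changed no member's call; with it the adjusted p of the Dusp14 effective length at 6 h was 0.112 (limma). Of 720 list counts, 85 moved by over 1.5 times; many were so small that 1 gene crossing the threshold is enough. With 2 libraries a group, differences in low genes such as Dusp5 are the least precise (standard error 0.27 at 2 h).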

Other observations

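Some family genes outside the members changed beyond the replicate error without reaching the fold threshold; they were picked after their values were seen. Dusp10, a JNK and p38 phosphatase, had 76.7 ± 11.9 normalized counts (SD, n = 2) at 0 h, 141 ± 14 at 2 h and 128 ± 5.8 at 6 h, with log2 differences from 0 h of 0.88 ± 0.28 (adjusted p = 0.00827, DESeq2) and 0.74 ± 0.28 (adjusted p = 0.0202). Dusp7, a cytoplasmic ERK phosphatase related to Dusp6, went the other way, with 461 ± 30 normalized counts in the control, 258 ± 2.7 after 2 h and 342 ± 19 after 6 h (log2 -0.84 ± 0.17 at 2 h, adjusted p = 9.67e-06, DESeq2; -0.43 ± 0.17 at 6 h, adjusted p = 0.0244). Dusp9, which also acts on ERK in the cytoplasm, was barely detected, with a mean of 2.62 normalized counts.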
